A study of Mus musculus with 19 samples.

Results

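The 9 genes Fkbp5, Tsc22d3, Sgk1, Zbtb16, Klf9, Mt1, Mt2, Errfi1 and Dusp1 are standard readouts of glucocorticoid receptor activity, and their transcripts were followed in the lungs of mice given a mixture of polycyclic aromatic hydrocarbons. They, Per1 and all gene lists below were chosen with earlier results of these data known. The 9 genes were taken by name, as all probes on the array whose RefSeq accession belongs to 1 of these genes. Each gene had 1 such probe, and all 9 probes were tested, among 20660 genes with a symbol and 31015 tested probes in all. Per1, a clock gene that glucocorticoids also induce, was set beside them.

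The mice were males of the MutaMouse strain, transgenic animals on a BALB/C-DBA/2 background that serve for mutation assays, about 12 weeks old and each housed alone. All groups, the controls included, received olive oil by oral gavage daily for 28 days, and lungs were taken 72 h after the last dose. D0 received the oil alone (5 mice). D1 (4 mice), D2 (5 mice) and D3 (4 mice) received in it 15, 30 and 60 mg benzo[a]pyrene (BaP) equivalents per kg body weight per day of the mixture (BaP, benz[a]anthracene, benzo[b]fluoranthene, benzo[k]fluoranthene, benzo[ghi]perylene, chrysene, dibenz[a,h]anthracene and indeno[1,2,3-cd]pyrene). RNA came from sections of the right lung lobe and was hybridised with Cy5 (red) to 2-colour arrays, against a Cy3-labelled reference RNA pooled from 11 mouse cell lines, with no dye swap. Values are log2 ratios of lung over reference RNA, so they compare mice for 1 gene and not genes with each other. Nothing in the sources gives the hour of the day at which tissue was taken, and no corticosterone measurement was used here. D3 mouse 35 was hybridised to 2 arrays, which were averaged and counted as 1 mouse. The array labelled D2 mouse 23 bears a number that lies among those of D1, and counting it in D1 changed no call of the 9 genes. The p-values measure the spread between mice, which also holds differences between arrays and slides, since every mouse but mouse 35 had 1 array.

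Glucocorticoids enter cells freely and bind the glucocorticoid receptor (Nr3c1), which sits in the cytoplasm with heat shock proteins and the immunophilins Fkbp4 and Fkbp5. The bound receptor moves to the nucleus, where pairs of receptors bind a palindromic response element (GRE) and switch genes on. In lung these hormones drive surfactant maturation before birth and restrain inflammation, and their blood level follows the daily rhythm and stress. Several of the 9 genes also answer other signals: the metallothioneins to metals, Dusp1 and Errfi1 to growth factors and stress.

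Promoter sequences of 4 genes are shown because Sgk1 and Mt1 held a GRE, Mt1 and Mt2 held metal response elements, and Errfi1, the 1 gene called, held neither. Fkbp5, Tsc22d3 and Klf9, which were not called against D0, also held neither, and sites beyond the promoter stretch were not searched. The sequences run from 250 bases before to 50 bases after the annotated start and are taken from RefSeq (build GRCm38.p6, plus strand), with the elements named next in capitals. Sgk1 chr10:21993640-21993939 is the fifth of 6 Sgk1 starts, with CACGTG (an E-box, bound by clock factors) and the full GRE palindrome in capitals. In Mt1 chr8:94178839-94179138 the capitals are a GRE and 3 metal response elements, in Mt2 chr8:94172368-94172667 they are 4 metal response elements, and in Errfi1 chr4:150854820-150855119 (the second of 2 starts) they are the cAMP response element TGACGTCA.
Sgk1: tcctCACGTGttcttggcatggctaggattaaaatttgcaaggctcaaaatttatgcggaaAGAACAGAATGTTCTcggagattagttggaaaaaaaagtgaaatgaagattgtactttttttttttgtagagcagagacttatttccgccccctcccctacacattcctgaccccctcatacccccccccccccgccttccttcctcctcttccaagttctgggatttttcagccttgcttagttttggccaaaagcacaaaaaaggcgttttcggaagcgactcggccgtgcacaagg
Mt1: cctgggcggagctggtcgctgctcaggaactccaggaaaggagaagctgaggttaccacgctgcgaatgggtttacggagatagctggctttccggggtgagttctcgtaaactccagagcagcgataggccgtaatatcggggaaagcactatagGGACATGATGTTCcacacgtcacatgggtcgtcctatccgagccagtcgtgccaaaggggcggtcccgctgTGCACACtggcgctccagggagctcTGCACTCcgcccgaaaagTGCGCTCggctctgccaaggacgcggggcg
Mt2: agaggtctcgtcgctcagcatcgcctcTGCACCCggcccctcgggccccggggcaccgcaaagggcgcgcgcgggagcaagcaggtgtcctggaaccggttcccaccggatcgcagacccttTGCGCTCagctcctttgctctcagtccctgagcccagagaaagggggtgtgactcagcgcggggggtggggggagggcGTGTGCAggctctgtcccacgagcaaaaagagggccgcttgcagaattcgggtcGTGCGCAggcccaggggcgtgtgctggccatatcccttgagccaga
Errfi1: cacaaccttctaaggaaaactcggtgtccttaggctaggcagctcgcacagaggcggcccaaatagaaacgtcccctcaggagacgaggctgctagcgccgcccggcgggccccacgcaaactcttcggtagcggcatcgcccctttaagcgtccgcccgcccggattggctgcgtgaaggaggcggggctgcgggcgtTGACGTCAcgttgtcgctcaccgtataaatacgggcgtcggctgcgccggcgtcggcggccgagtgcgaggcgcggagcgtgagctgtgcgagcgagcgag

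Motifs were searched on both strands in 32851 promoters of the same length. The full palindrome, AGAACA and TGTTCT with any 3 bases between them, was present in 3 of them (0.00913%), 1 being that of Sgk1, where it lay at -189 to -175 from the start. A looser form, GNACA and TGTNC around 3 bases, which includes the full one, was present in 0.475% of all promoters and in 2 of the 16 promoters of these genes, those of Sgk1 and Mt1. The metal response elements TGCACNC and TGCGCNC were present in 12.6% and 15.4% of all promoters, and in 2 and 4 of the 16, the former at Mt1 and Mt2 and the latter also at Dusp1 and the sixth Sgk1 start. CACGTG, in 7.15% of all promoters, was found at Fkbp5, Dusp1 and 1 start each of Sgk1 and Per1. TGACGTCA, in 1.79% of all, was found at Errfi1 and Dusp1. GCGTG, the core that the aryl hydrocarbon receptor binds, was present in 32.4% of all promoters and in 8 of the 16. In the table of promoters 8 of the 9 genes had an entry, and Zbtb16 had not. Which Sgk1 start the probe's transcript uses was not tested.

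Every gene was well measured. The spots of all 9 genes and of Per1 were well above background in both channels on all 19 arrays, and none was saturated. A probe was called at an adjusted p (limma, Benjamini-Hochberg over 31015 probes) of at most 0.05 together with a change of at least 1.5-fold. At D1 and D2, 0 of the 9 genes were called, beside 1.06% and 0.626% of all tested probes, and 1 gene each had an unadjusted p under 0.05 (Fkbp5 at D1, Klf9 at D2), as had 19.8% and 14.7% of all probes. At D3, 1 of 9 was called, Errfi1, which was lower, beside 2.43% of all probes called in either direction and 1.23% called lower. Errfi1 and Klf9 had an unadjusted p under 0.05 there, as had 26.2% of all probes. The linear trend over dose called 1 of 9, again Errfi1, beside 1.53% of all probes in either direction and 0.574% lower. Between neighbouring doses 0 of 9 were called, beside 0% of all probes for D2 against D1 and 0.106% for D3 against D2, and 0 and 3 of the 9 had an unadjusted p under 0.05, beside 9.82% and 11.7%. The F test over the 3 doses passed 2 of 9, Errfi1 and Klf9, beside 7.79%. The median change of the 9 genes was 0.02, 0.02 and -0.05 on the log2 scale at D1, D2 and D3, against 0.01, 0.00 and 0.00 over all tested probes. With arrays centred on their median in place of loess it was 0.375, 0.225 and 0.156, with 9, 8 and 6 of the 9 genes higher, against 0.169, 0.121 and 0.0604 over all probes. In bulk tissue, fewer cells of a type and less RNA per cell cannot be told apart in any of these values. Arrays of 1 group always lay in the same slide column, and effects of that position and of dose cannot be told apart.

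**Figure D1:**
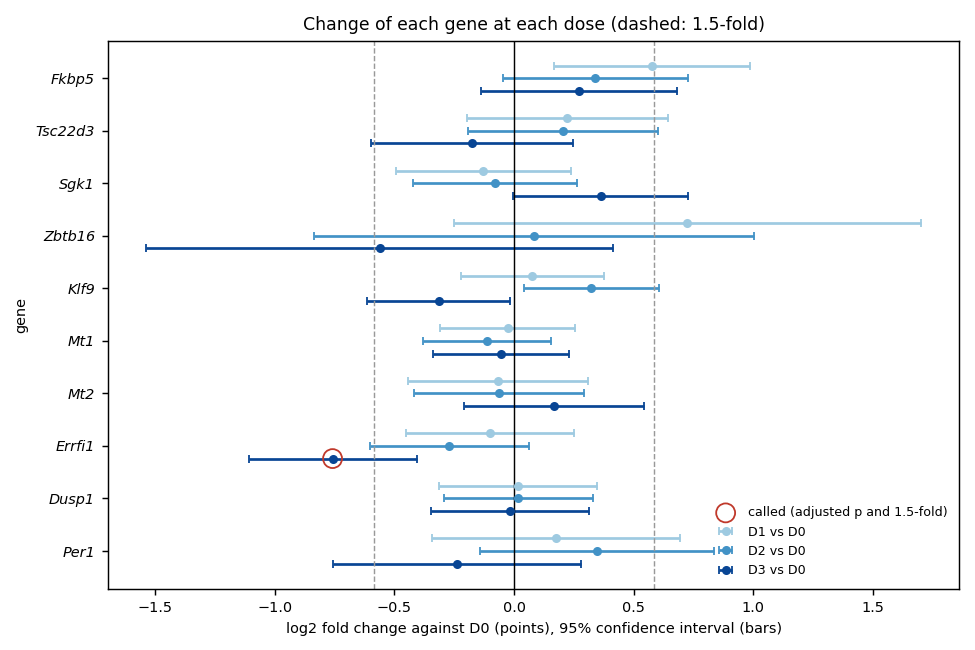
Log2 fold change of each gene against D0 (horizontal axis, points) with its 95% confidence interval (bars) at D1, D2 and D3, from light to dark blue. Only Errfi1 at D3 (-0.76, circled) lay past the dashed 1.5-fold line with an adjusted p of at most 0.05.

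Errfi1 (NM_133753; Mig6, a feedback inhibitor that binds and silences EGFR and its relatives) fell by 40.9% at D3 (1.69-fold). Its log2 ratios in D0 were 0.10, 0.36, -0.20, -0.44 and 0.56 in mice 1 to 5, and in D1 they were -0.18, 0.07, -0.28 and 0.30 in mice 21, 22, 24 and 25. They were -0.12, -0.29, -0.31, -0.14 and -0.10 in D2 (mice 23, 26, 28, 29 and 30), and -0.36, -0.64, -0.82 and -0.91 in D3 (mice 31, 32, 34 and 35). All 4 D3 mice lay below every D1 and D2 mouse, and the group overlapped D0 only through control mouse 4, at -0.44, which was below D3 mouse 31. The change from D0 was -0.76 ± 0.17 (SE; 95% confidence interval -1.11 to -0.41; limma adjusted p = 0.00603), with 4 of 4 mice below the D0 mean. Group means stepped down with dose, from 0.08 ± 0.41 (SD, n = 5) in D0 to -0.03 ± 0.26 (n = 4), -0.19 ± 0.10 (n = 5) and -0.68 ± 0.24 (n = 4), but D1 and D2 were not called against D0 (adjusted p = 0.797 and 0.464). The fitted trend from D0 to D3 was -0.76 ± 0.16 (adjusted p = 0.00618). D3 did not overlap D2, yet that step of -0.49 ± 0.17 had an adjusted p of 0.27. The call at D3 held when any 1 mouse was left out (change -0.89 to -0.64). Within slides 1, 2 and 3 the differences between D3 and D0 arrays were -0.73, -0.59 and -1.38. On slide 2 the D1 and D2 arrays were not below D0 (0.04 and 0.20). When arrays were centred on their median in place of loess, the change was -0.46 with an adjusted p of 0.847.

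Klf9 (NM_010638; a zinc finger repressor that glucocorticoids and thyroid hormone induce) was highest in D2 and lowest in D3. Its log2 ratios were 1.17, 1.13, 1.27, 1.25 and 1.5 in D0 and 1.09, 1.36, 1.36 and 1.55 in D1. D2 mice had 1.48, 1.65, 1.16, 1.73 and 1.92, and D3 mice 0.88, 0.80, 1.35 and 0.76, in the same order of mice as above. In D3, 3 of 4 mice were below every other mouse of the study, while mouse 34 was within the D0 range. D2 and D3 differed from D0 by 0.32 ± 0.13 and -0.32 ± 0.14, in opposite directions and neither called (adjusted p = 0.25 and 0.164). The difference between D3 and D2 was -0.64 ± 0.14 with an adjusted p of 0.086. It was called with slide as a block, and without D2 mouse 28 or D3 mouse 34. The F test over doses gave Klf9 an adjusted p of 0.0396 and Errfi1 0.0287. For Klf9 that call was lost in 12 of the 18 fits that left out 1 mouse (all but those without D0 mouse 5, D1 mice 21 and 25, D2 mice 23 and 28 and D3 mouse 34), and for Errfi1 in 4, those without D0 mouse 1 and D3 mice 32, 34 and 35. Median centring ended the F call of both genes, and the scanner software's processed signals that of Klf9.

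**Figure D2:**
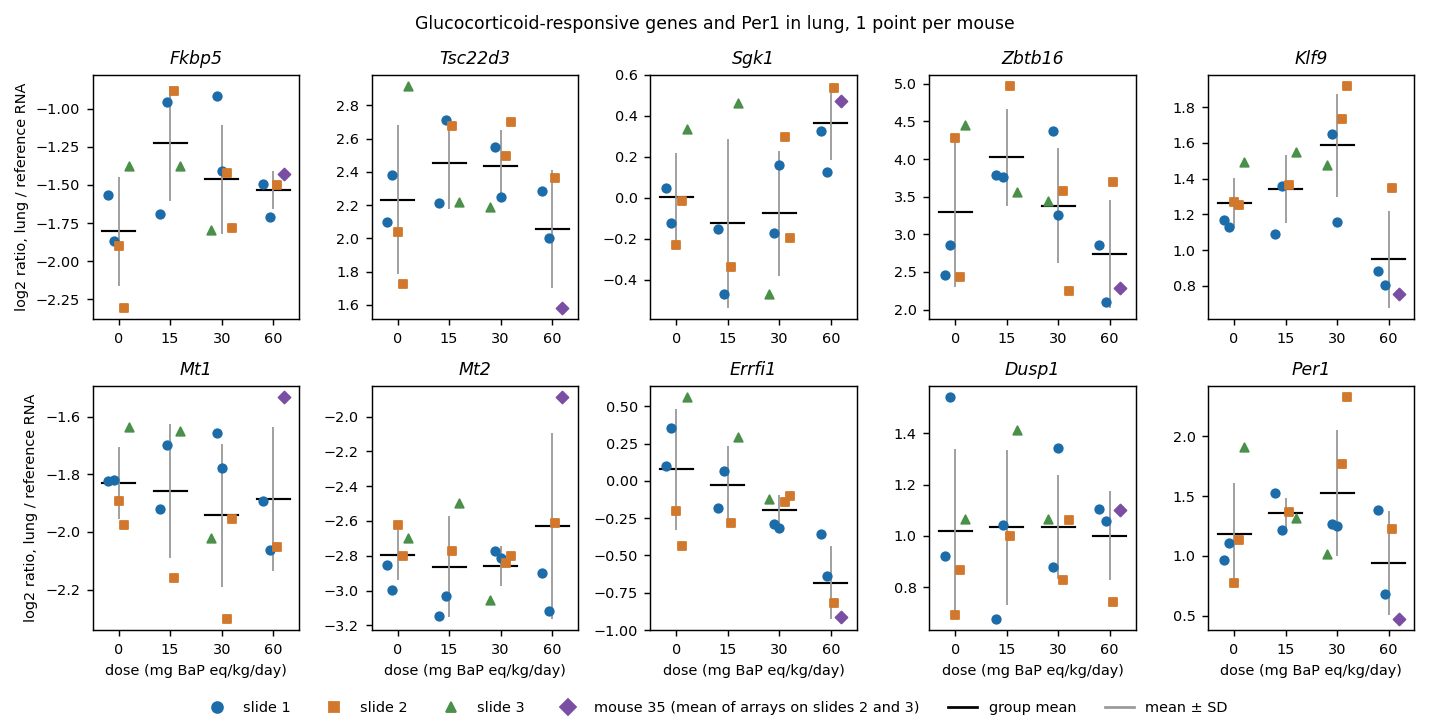
Log2 ratio of lung over reference RNA (vertical axes) for 9 glucocorticoid-responsive genes and Per1 against dose (horizontal axes), 1 point per mouse, with colour and shape giving the slide, black bars the group means and grey lines the SD. The D3 mice were low for Errfi1 (-0.91 to -0.36), and control mouse 5, the green triangle at dose 0, was the highest control for 7 of the 9 genes.

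Fkbp5 (NM_010220; the immunophilin that holds the receptor in its low-affinity state, and a sensitive target of it) had higher means than D0 at each dose, none called. Its log2 ratios were -1.57, -1.87, -1.90, -2.31 and -1.37 in D0 and -1.69, -0.96, -0.88 and -1.38 in D1. They were -1.80, -0.92, -1.41, -1.42 and -1.78 in D2, and -1.49, -1.71, -1.5 and -1.43 in D3. All dosed mice were above the D0 mean of -1.80, D2 mouse 23 by less than the rounding shows, but the groups overlapped at every dose, since control mice 1 and 5 were as high as many dosed mice. The differences from D0 were 0.58 ± 0.20, 0.34 ± 0.18 and 0.27 ± 0.20 (adjusted p = 0.097, 0.419 and 0.411). The interval at D1 ran from 0.17 to 0.99, thus from 1.12-fold to 1.98-fold. On slide 3, with 1 mouse of each group, the 3 differences were -0.0036, -0.42 and -0.02, whereas on slides 1 and 2 all 6 were positive (0.12 to 1.22).

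Sgk1 (NM_001161845; a kinase that raises sodium channel activity in airway and alveolar epithelium) was highest in D3. The 4 D3 mice had 0.32, 0.13, 0.54 and 0.47, against 0.05, -0.12, -0.23, -0.02 and 0.33 in D0. D1 mice had -0.15, -0.47, -0.34 and 0.46, and D2 mice -0.47, -0.17, 0.16, 0.30 and -0.20. Each D3 mouse was above the D0 mean of 0.00, and the groups overlapped through control mouse 5. The difference at D3 was 0.36 ± 0.17 (95% interval -0.0026 to 0.73, adjusted p = 0.194), and those at D1 and D2 were -0.13 ± 0.17 and -0.08 ± 0.16.

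Tsc22d3 (NM_001077364; GILZ, a leucine zipper protein that carries part of the anti-inflammatory action of glucocorticoids) spanned 1.58 to 2.92 over the 18 mice, the lowest being D3 mouse 35. The D0 mice alone spread from 1.73 (mouse 4) to 2.92 (mouse 5), nearly the whole range. Differences from D0 were 0.22 ± 0.20, 0.20 ± 0.19 and -0.18 ± 0.20 (adjusted p = 0.595, 0.687 and 0.635), with intervals from -0.20 to 0.64, -0.19 to 0.60 and -0.60 to 0.24.

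Zbtb16 (NM_001033324; PLZF, a transcription factor that glucocorticoids induce steeply and that marks innate-like lymphocytes) varied most between mice. Its log2 ratios were 2.45, 2.86, 4.28, 2.44 and 4.46 in D0 and 3.79, 3.76, 4.98 and 3.56 in D1. They were 3.44, 4.37, 3.26, 3.57 and 2.25 in D2 and 2.85, 2.10, 3.70 and 2.29 in D3. The controls fell into a low set of 3 mice and a high set of 2, mice 3 and 5, and the groups overlapped at every dose. The D1 mean was higher by 0.72 ± 0.47 and the D3 mean lower by -0.56 ± 0.47 (adjusted p = 0.418 and 0.488). The intervals, -0.25 to 1.70 and -1.54 to 0.42, leave room for changes of over 1.5-fold either way at D2 (-0.84 to 1.00) and in 1 direction at the other doses.

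Dusp1 (NM_013642; a phosphatase that switches off p38 and JNK) had the most even group means, 1.02 ± 0.32, 1.03 ± 0.30, 1.04 ± 0.20 and 1.00 ± 0.17 from D0 to D3. Single mice ranged from 0.68 (D1 mouse 21) to 1.54 (D0 mouse 2). Its 3 intervals lay within -0.35 and 0.35, inside the 1.5-fold lines at ±0.585.

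Mt1 (NM_013602) and Mt2 (NM_008630), neighbouring genes for small metal-binding proteins that glucocorticoids, zinc and cadmium induce, were not called at any dose. Mt1 means were -1.83 ± 0.13, -1.86 ± 0.23, -1.94 ± 0.25 and -1.88 ± 0.25, and its differences from D0 lay between -0.11 and -0.03, with all intervals within -0.38 and 0.26. Mt2 means were -2.79 ± 0.14, -2.86 ± 0.29, -2.86 ± 0.11 and -2.63 ± 0.54. The wide Mt2 spread in D3 came from 1 animal, since mouse 35 had -1.89 on the mean of its arrays against -2.90, -3.12 and -2.61 in mice 31, 32 and 34. Without mouse 35 the Mt2 difference at D3 turned from 0.17 to -0.08. Its arrays, on slides 2 and 3, gave -1.82 and -1.95 for Mt2 and -1.59 and -1.47 for Mt1, so that it was the highest D3 mouse for both genes on both arrays. The paralogs are alike in sequence, and how far each probe also binds the RNA of the other was not tested.

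Per1 (NM_011065), the clock and glucocorticoid gene, followed the order of means of Klf9, with 1.18 ± 0.43, 1.36 ± 0.13, 1.53 ± 0.53 and 0.94 ± 0.43 from D0 to D3. None of its differences from D0 was called (0.18 ± 0.25, 0.35 ± 0.23 and -0.24 ± 0.25, adjusted p = 0.755, 0.54 and 0.592). The step from D2 to D3 was -0.58 ± 0.25 (adjusted p = 0.362). Single mice spread from 0.47 (D3 mouse 35) to 2.33 (D2 mouse 30), with control mouse 5 at 1.91.

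Mice of 1 group, with differences between their arrays and slides included, differed in these genes more than in most others. The residual SD of the 9 genes was 0.217 (Mt1) to 0.804 (Zbtb16), against a median of 0.154 over all tested probes (percentiles 81 to 99.7). Among 1000 probes of like red signal each, the percentiles were 84.1 to 99.7. Klf9, Mt1 and Mt2 were close to the median spread in D0 alone (percentiles 50, 39.8 and 50.3), whereas the SD of Fkbp5, Tsc22d3, Zbtb16, Errfi1 and Dusp1 in D0 was at percentile 93.8 or above.

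Control mouse 5 was the highest of 5 controls for 7 of the 9 genes, Fkbp5, Tsc22d3, Sgk1, Zbtb16, Klf9, Mt1 and Errfi1, and also for Per1. Over all tested probes it was the highest control for 19.5%. Control mouse 4 was the lowest for 5, Fkbp5, Tsc22d3, Zbtb16, Mt1 and Errfi1, and over all probes for 21.3%. Mouse 5 was the only control on slide 3, so the animal and the slide cannot be told apart. The other mice on that slide did not share 1 pattern: D1 mouse 25 was the highest of its group for 6 genes (25.4% of all probes) and the lowest for Zbtb16, and D2 mouse 23 was the lowest for 4 (17.6%) and the highest for none. Mouse 35, with 1 of its arrays there, was the highest D3 mouse for 3 and the lowest for 3 (27.1% and 28.2%). On slide 1, D1 mouse 21 and D3 mouse 32 were each the lowest of their group for 5 (24.5% and 25.7%).

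**Figure D3:**
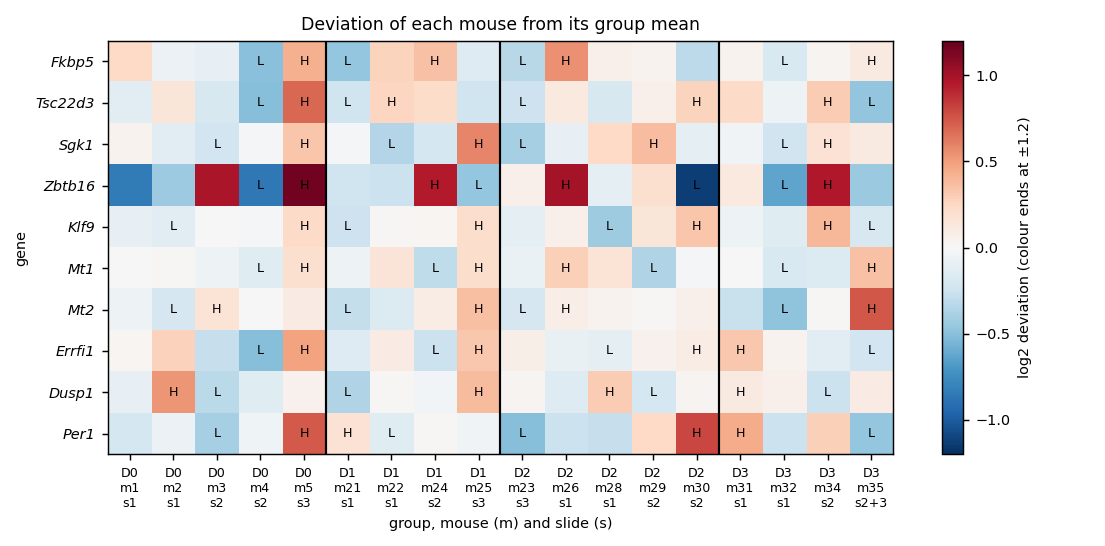
Log2 deviation of each mouse (columns, with group, mouse and slide) from the mean of its own group for each gene (rows), from blue (lower) to red (higher), with H and L marking the highest and lowest mouse of a group. Control mouse 5 held H for 7 of the 9 genes and Per1, and control mouse 4 held L for 5.

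Deviations from the dose means were correlated over the 18 mice for all 45 pairs of the 10 genes, and 0 pairs passed at an adjusted p of at most 0.05 by Pearson's r or Spearman's rho (two-sided permutation tests within dose groups, 100000 resamples, Benjamini-Hochberg over 45 pairs). The highest was Tsc22d3 with Per1 (r = 0.68, permutation p = 0.0043, adjusted p = 0.194; rho = 0.64, permutation p = 0.00867, adjusted p = 0.334), and r was 0.52 without mice 5 and 30, those farthest out. It was 0.25 among the 8 arrays of slide 1 and 0.70 among the 7 of slide 2. Klf9 with Per1 came next (r = 0.60, permutation p = 0.0249, adjusted p = 0.259), with rho = 0.60 (permutation p = 0.0225, adjusted p = 0.334). For that pair r was 0.41 without mice 5 and 30. It was 0.06 on slide 1 and 0.82 on slide 2, and 0.61 with slide means removed (adjusted p = 0.0939).

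Mt1 and Mt2 had r = 0.48 over all mice (permutation p = 0.104, adjusted p = 0.39) and rho = 0.42 (permutation p = 0.127, adjusted p = 0.408), and r fell to 0.18 without mice 32 and 35. It was 0.89 on slide 1 and 0.85 on slide 2, but the value on slide 2 rested on mouse 35 and was 0.34 without it, a check added after seeing the data. Tsc22d3 and Errfi1 had r = 0.59 (permutation p = 0.0452, adjusted p = 0.291) and rho = 0.50 (permutation p = 0.0699, adjusted p = 0.393), and r over all mice was 0.26 without mice 4 and 5. On slides 1 and 2 it was 0.73 and 0.75, slide 1 holding neither of these mice. Tsc22d3 and Klf9 had r = 0.55 (permutation p = 0.016, adjusted p = 0.259) and rho = 0.60 (permutation p = 0.015, adjusted p = 0.334), with 0.51 without mice 28 and 34 and 0.74 and 0.82 on slides 1 and 2. After slide means were removed, 5 of the 45 pairs passed by Pearson's r (4 by rank), all positive: Mt1 with Mt2 (r = 0.85), Tsc22d3 with Errfi1 (0.76), Klf9 (0.71) and Per1 (0.71), and Errfi1 with Per1 (0.73). Without mouse 35 these r were 0.74, 0.70, 0.63, 0.65 and 0.68 over 17 mice. The adjusted p over all mice was 0.0219 for Mt1 with Mt2 and for Tsc22d3 with Errfi1 and Klf9. It was 0.0398 for Per1 with Tsc22d3 and Errfi1. These permutations stayed within dose groups but not within slides, so the p-values may be too small. With red signal alone 0 pairs passed.

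**Figure D4:**
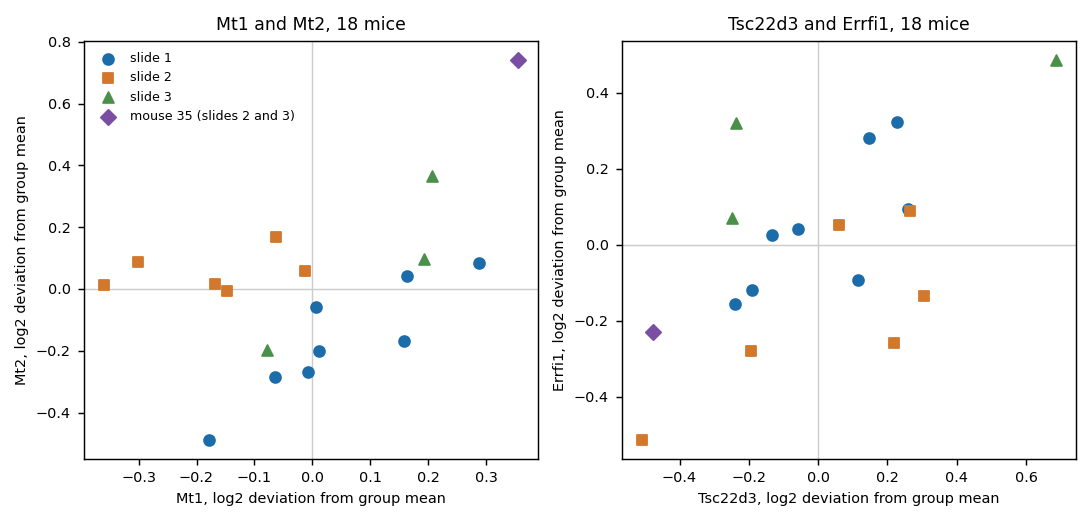
Deviation of each of 18 mice from its group mean for Mt2 against Mt1 (left) and Errfi1 against Tsc22d3 (right), in log2 units, with colour and shape giving the slide. For the metallothioneins the slide 1 points rise together (r = 0.89), while those of slide 2 lie flat apart from mouse 35 (r = 0.85 with it and 0.34 without it).

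Among the receptor and its partners, the calls against D0 fell at D3. Of 16 genes listed for the receptor, its chaperones, cofactors and steroid handling, 15 were tested with 25 probes, of which 0 were called at D1 and D2, and 1 higher and 1 lower at D3, thus 2 of 25 beside 2.43% of all tested probes. Nr3c1, the glucocorticoid receptor, was not called (0.04 ± 0.09, 0.20 ± 0.09 and 0.04 ± 0.09 from D1 to D3 on its brighter probe), nor were the mineralocorticoid receptor Nr3c2 (0.06, -0.00325 and -0.00124) and Hsd11b1, which regenerates active hormone (0.25, 0.07 and 0.23). The chaperone partner Fkbp4 was at 0.47 ± 0.19 at D1 (adjusted p = 0.168). Abcb1b, a P-glycoprotein that exports steroids and other compounds, rose by 0.73 ± 0.11 at D3 (adjusted p = 0.000259). For the heat shock protein Hspa8, 1 of 3 probes was called lower at D3 (-0.77 ± 0.20, adjusted p = 0.0148), and the other two, the brightest included, were at -0.45 and -0.38 (adjusted p = 0.184 and 0.272).

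Of 30 further genes known to be induced by glucocorticoids, 27 were tested with 35 probes, of which 2, 1 and 3 were called at D1, D2 and D3, beside 1.06%, 0.626% and 2.43% of all tested probes. At D1, 2 probes were called higher, those of Lpin1, a phosphatidate phosphatase of lipid synthesis (0.61 ± 0.16), and 1 of 2 of Fam107a, an actin-binding stress protein (1.21 ± 0.25), whose brighter probe was at -0.07. At D2, 1 was called, Per2, a clock gene (0.88 ± 0.18). At D3, 2 were higher, Per2 (0.88 ± 0.19) and Lcn2, an iron-siderophore binding protein of neutrophils and epithelium (0.81 ± 0.20), and 1 was lower, Angptl4, an inhibitor of lipoprotein lipase (-0.88 ± 0.26, adjusted p = 0.0336). Irs2 (-0.54 ± 0.10, adjusted p = 0.0022) and Bcl6 (-0.57 ± 0.15, adjusted p = 0.0193) met the adjusted p at D3 but not the fold. So did the dimmer of 2 Rgs2 probes, which was higher (0.49 ± 0.15, adjusted p = 0.0344, and 0.54 ± 0.14 at D2, adjusted p = 0.0488). The median change of the list's genes was -0.04 at D3, against 0.00 over all probes.

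Slc30a1, the zinc exporter that the metal sensor Mtf1 induces together with the metallothioneins, was higher in all dosed groups while Mt1 and Mt2 were not called. Its log2 ratio was 1.4 ± 0.15 in D0, 1.94 ± 0.21 in D1, 1.93 ± 0.16 in D2 and 2.07 ± 0.08 in D3. The lowest dosed mouse, at 1.77, was above the highest control, at 1.64. The changes were 0.53 ± 0.10, 0.53 ± 0.10 and 0.67 ± 0.10 (adjusted p = 0.00616, 0.00675 and 0.000497), of which the last was past 1.5-fold. It was the only gene called among 7 tested of the 8 listed for metal response (1 of 8 probes at D3, beside 2.43% of all probes), and Mtf1 itself was at -0.15, -0.09 and -0.12.

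For Errfi1's own pathway, 0 of 10 probes of 8 tested ERBB receptors and ligands were called at any dose, beside 1.06%, 0.626% and 2.43% of all tested probes at D1, D2 and D3. Egfr met the adjusted p but not the fold with 1 of 3 probes at D2 (-0.47 ± 0.10, adjusted p = 0.0173) and another at D3 (-0.41 ± 0.10, adjusted p = 0.0113), the latter being its brightest. The third Egfr probe was at 0.12, -0.12 and 0.15 from D1 to D3 (adjusted p = 0.664, 0.705 and 0.493). Of 18 immediate early genes, which growth factors and stress switch on within minutes, 17 were tested with 18 probes, and 1 was called, Egr2, lower at D2 (-0.63 ± 0.13, adjusted p = 0.0147), where 0.626% of all probes were called. At D3 Egr2 met the adjusted p but not the fold (-0.53 ± 0.14, adjusted p = 0.0169). Fos (0.36 ± 0.13, adjusted p = 0.0739) and Egr1 (0.25 ± 0.16, adjusted p = 0.338) were not called at D3.

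**Figure D5:**
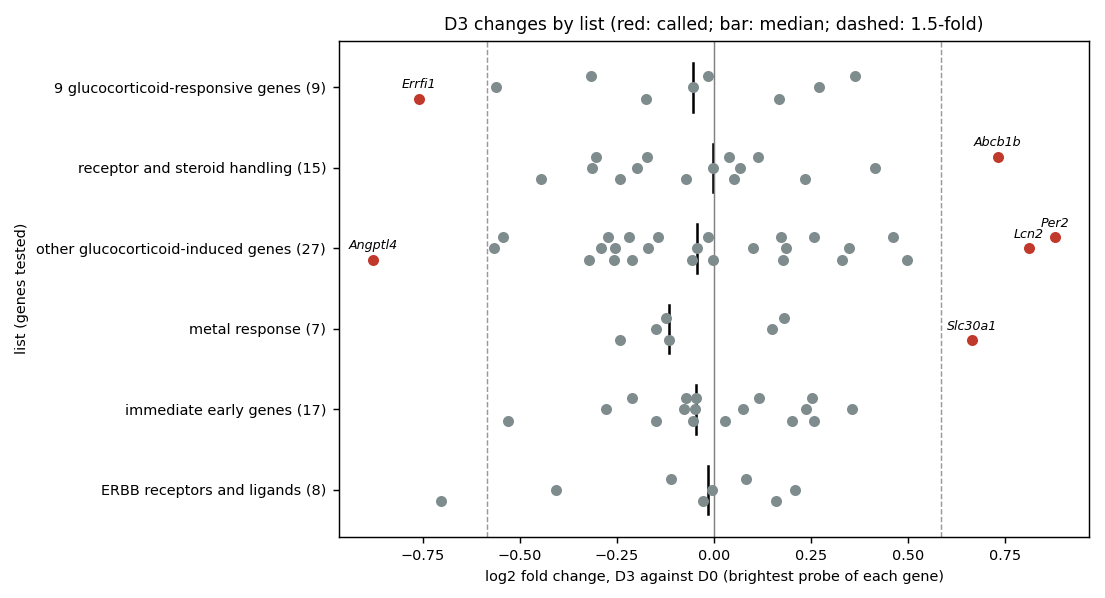
Log2 fold change at D3 against D0 (horizontal axis) of the brightest tested probe of each gene, by list (rows, with the number of genes tested), with called genes in red and named, list medians as black bars and 1.5-fold as dashed lines. The 9 glucocorticoid-responsive genes had 1 call, Errfi1 at -0.76, and the metal response list 1, Slc30a1 at 0.67.

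Among the cell type marker lists, those of neutrophils and natural killer cells had more than 1 call at D3. The lung label held, since alveolar type 2 markers had a mean log2 ratio of 4.86 to 5.6 in every mouse. At D3, 4 of 5 tested neutrophil markers were called higher, S100a8 by 1.77, Retnlg by 1.30, Cxcr2 by 0.92 and S100a9 by 0.86, where 2.43% of all tested probes were called in either direction and 1.23% lower. The fifth, Csf3r, the G-CSF receptor, went the other way (-0.46 ± 0.10, adjusted p = 0.00655; -0.37 at D1, adjusted p = 0.0445), short of 1.5-fold. The list mean was 2.82 to 4.13 per mouse in D3 against 2.04 to 2.75 in D0. Of 5 natural killer cell markers 2 were called lower at D3, Gzma by -3.07 and Prf1 by -0.66. Short of 1.5-fold, the adjusted p was also met by Klrb1c at D3 (-0.57 ± 0.13, adjusted p = 0.00571) and by Prf1 at D2 (-0.57 ± 0.11, adjusted p = 0.00889). Gzma, a granule protease, was also called lower at D1 (-1.60, adjusted p = 0.0366) and D2 (-2.13, adjusted p = 0.0073). The natural killer list mean at D3 was 0.45 to 0.80 per mouse against 1.28 to 2.03 in D0. Of the single calls elsewhere, Cav1 (alveolar type 1) was lower at D3 (-0.64), Pecam1 (endothelial) was higher at D1 and D3 (0.67 and 0.66), and 1 of 2 probes of Siglecf (alveolar macrophage) was lower at D2 (-1.05). Cardiac muscle markers had no call, but their mean ranged from 0.45 to 4.41 between mice. The alveolar type 2 (8 genes), club, ciliated, smooth muscle and fibroblast, T, B and red cell lists had no call at any dose. Of 10 alveolar type 2 probes, 2 met the adjusted p but not the fold at D3, both lower, those of the lipid transporter Abca3 (-0.48 ± 0.12, adjusted p = 0.0112) and 1 of 2 of the surfactant protein gene Sftpb (-0.36 ± 0.12, adjusted p = 0.0459). The share of all probes that met the adjusted p alone is not given here, so this count has no background beside it. The median change of the alveolar type 2 list was -0.31, -0.08 and -0.32 at D1, D2 and D3. The part of cell composition in the changes of Errfi1, Klf9 and Lcn2 was not tested.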

How the data were processed

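Lung RNA of 18 mice was measured on 19 2-colour arrays on 3 slides. The deposited files hold the scanner's red and green intensity per spot, and a deposited table holds the log2 ratios made by the authors. The methods name LOWESS normalization of median signals and MAANOVA; the file headers give Agilent Feature Extraction 11.0.1.1. MAANOVA was not installed, so limma 3.58.1 in R 4.3.3 took its place. Median signals without background subtraction were normalized within arrays by loess (span 0.3), control and outlier spots were left out, and spots of a probe were averaged. Of 55681 probes, 31015 were tested, those with red well above background in at least 4 mice of 1 group and no missing value. Genes were named through RefSeq accessions (27235 probes with a symbol). One model over the 4 groups was fitted, with calls at an adjusted p of at most 0.05 and 1.5-fold. The number of arrays limits the precision, and 0 columns of other samples were present. The code was tested on simulated data.

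The 9 genes, Per1 and all gene lists were chosen with earlier results of these data known. All 9 and Per1 were named, with Nr3c1, Nr3c2, Hsd11b1, Fkbp4, Mtf1, Slc30a1, Fos, Egr1 and Egfr, up to 6 called genes per list by change at D3, and the 2 nearest profiles per gene. Alternatives were other scalings, background correction, no filter, slide as a block, mouse 23 in D1, either array of mouse 35 and leaving out each mouse. The methods give 5 mice in D1 and 4 in D2, and the labels, which were followed, 4 and 5.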

Additional observations from a re-analysis of the deposited data

Results flagged for a closer look

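Of 40 groups examined (10 genes in 4 dose groups), 3 held a mouse far from the others by Dixon's ratio of its gap to the group's range, where chance gives about 1 in 20. Zbtb16 was 4.98 in D1 mouse 24 against 3.56 to 3.79 in the other D1 mice (ratio 0.838). Mt2 was -3.06 in D2 mouse 23 against -2.84 to -2.78 (ratio 0.757); this is the mouse whose number lies among those of D1. Dusp1 was 0.74 in D3 mouse 34 against 1.06 to 1.11 (ratio 0.869). None of these genes was called at any dose.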

How the results depend on the processing

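The call of Errfi1 at D3 held in 10 of 11 other settings, and with every mouse left out in turn. Median centring ended it: 0 of the 9 genes were then called at D3 and by trend, 0 passed the F test, and 39 of 45 pairs were correlated. Under that scaling the median change from D0 was 0.17, 0.12 and 0.06 at D1, D2 and D3 over all tested probes and 0.329, 0.21 and 0.195 over the 7754 brightest, and it turned uncalled changes of Tsc22d3 (D3 0.0619), Sgk1 (D1 0.20, D2 0.15), Mt1 (D1 0.37, D2 0.12, D3 0.17), Mt2 (D1 0.32, D2 0.17), Errfi1 (D1 0.27) and Dusp1 (D3 0.16). With processed signals 1 gene, Errfi1, passed the F test, and uncalled changes turned for Mt1 (D1 0.0586, D3 0.14), Mt2 (D1 0.0161) and Dusp1 (D1 -0.0404, D2 -0.0139). Red signal alone turned Mt1 (D1 0.0908, D3 0.0703) and Dusp1 (D1 -0.0335, D2 -0.0331), and the deposited table Mt1 (D1 0.0901, D3 0.104), Mt2 (D1 0.00793) and Dusp1 (D1 -0.00297). With slide as a block 1 gene, Klf9, was called between D3 and D2 and Dusp1 turned (D1 -0.0209); with slide means removed 5 pairs passed. Counting mouse 23 in D1 turned Sgk1 (D2 0.0196). The cause was not tested.

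Leaving out 1 mouse at a time gave 0 to 2 genes passing the F test and 0 to 1 called between D3 and D2. It turned uncalled changes of Sgk1 at D2 (-0.17 to 0.0196), Zbtb16 at D2 (-0.17 to 0.37), Mt1 at D1 (-0.0962 to 0.0734) and D3 (-0.17 to 0.00477), Mt2 at D1 (-0.19 to 0.0274) and D3 (-0.0806 to 0.33), Errfi1 at D1 (-0.23 to 0.0195), and Dusp1 at D1 (-0.11 to 0.15), D2 (-0.0641 to 0.15) and D3 (-0.0980 to 0.12). Each gene had 1 probe, so averaging probes gave no other value. No paired analysis was possible because the groups share no mouse numbers; slide, which held all groups, was the block fitted above.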

Other observations

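Over the 18 mice, the tested genes whose log2 ratios were most like those of each gene were as follows, by Pearson's r with no test, over mice that share slides. Snrk (0.854) and Rasgef1b (0.832) were nearest to Errfi1, and Zfp329 (0.855) and Casp2 (0.832) to Klf9. Tsc22d3 and Per1 shared Herpud1 among their nearest 2 (0.79 and 0.797), beside Rgcc (0.747) for Tsc22d3 and Hey1 (0.845) for Per1. C9orf72 (0.822) and Ndrg1 (0.802) were nearest to Fkbp5, Tcim (0.798) and Fam102b (0.784) to Sgk1, and Nfx1 (0.746) and Cpxm2 (0.725) to Zbtb16. The metallothioneins shared neither neighbour, with Meis3 (0.761) and Osbpl3 (0.729) for Mt1 and Csnk1e (0.807) and Cyp4f39 (0.789) for Mt2. Ficd (0.847) and Litaf (0.824) were nearest to Dusp1.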
